A study of Mus musculus with 11 samples.

Results

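The collagen chain genes outside Col4a1 and Col4a2 were followed through the differentiation of mouse embryonic stem cells toward ventral hindbrain. The members are the genes of the count table whose symbol is Col, a number, the letter a and a number, with Col4a1 and Col4a2 left out. They came to 42 of 38197 genes, and the rule reads their symbols only. By collagen class they comprised 11 fibrillar chains, 9 FACIT chains (fibril-associated collagens with interrupted triple helices), 6 type VI chains, 4 type IV chains, 4 transmembrane chains, 3 network chains of types VIII and X, 2 multiplexins and 3 others. All cells were of E14, a wild-type embryonic stem cell line of strain 129 grown in monolayer. Over days 0 to 3 the cultures received RA, or retinoic acid, a hindbrain patterning signal, together with SAG, which activates the hedgehog pathway at Smoothened, and the day 0 libraries are titled as stem cells. Unsorted cultures gave 2 polyA-selected libraries at each of days 0, 1, 2 and 3. Another 3 libraries held neural progenitors sorted for the surface protein Prominin-1, whose status label reads day 3.5 while their source label reads 3 days, and they are called sorted day 3.5 here.

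Collagens are the main structural proteins of the extracellular matrix. Their chains wind into a triple helix in which glycine, the smallest residue, opens each Gly-X-Y unit. Fibrillar chains build cables, FACIT chains sit on the surface of those cables, and type IV chains and multiplexins belong to basement membranes, the sheets that also surround the neural tube. In the embryo, the floor plate and notochord express cartilage collagens such as type II before cartilage exists.

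The helix repeat is visible in the genes as runs of glycine codons (GGN), with 1 such codon opening each Gly-X-Y unit. Over the longest complete GENCODE M21 coding sequence of each gene, all 42 members held a run of 5 or more GGN units, and 37 held at least 1 exon of exactly 54 bases made only of such units. Of 449 exons of this kind, 302 lay in fibrillar chains. The longest unbroken run was 339 units in Col2a1, 338 in Col5a1, 339 in Col1a2, 113 in Col22a1 and 30 in Col18a1. Of these 5 genes, Col2a1, Col5a1 and Col1a2 are fibrillar, Col22a1 is a FACIT chain and Col18a1 a multiplexin. The 5′-most 54-base exon of each is given on its coding strand, with the glycine codon that opens each unit in capitals. On GRCm38 they lie at chr15:97998545-97998598 on the minus strand (Col2a1, exon 6), chr2:27965251-27965304 on the plus strand (Col5a1, exon 15), chr6:4515481-4515534 on the plus strand (Col1a2, exon 8), chr15:71952523-71952576 on the minus strand (Col22a1, exon 13) and chr10:77067379-77067432 on the minus strand (Col18a1, exon 27).
Col2a1: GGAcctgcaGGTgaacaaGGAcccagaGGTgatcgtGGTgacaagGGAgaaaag
Col5a1: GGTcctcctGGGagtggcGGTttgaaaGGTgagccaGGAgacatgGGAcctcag
Col1a2: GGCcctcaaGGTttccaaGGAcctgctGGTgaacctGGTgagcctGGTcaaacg
Col22a1: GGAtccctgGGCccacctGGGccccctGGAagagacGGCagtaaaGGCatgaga
Col18a1: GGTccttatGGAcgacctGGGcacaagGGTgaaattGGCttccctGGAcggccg

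Library totals lay between 26136331 and 30384599 counts at days 0 to 3 and between 13173674 and 17113430 in the sorted libraries. Levels are CPM, counts relative to library totals scaled by TMM factors, and levels of different genes were set side by side only per length, as the deposited FPKM or as CPM per kilobase. Changes are log2 fold changes with their SE from edgeR's quasi-likelihood test, and a gene was called where its Benjamini-Hochberg adjusted p over all genes tested was under 0.05. Nothing in the labels ties libraries to separate cultures, and the p-values therefore speak only of the spread among these libraries. In bulk RNA, fewer cells of a type and less RNA per cell cannot be told apart. The names of all sorted libraries carry another prefix than those of days 0 to 3, whose meaning the labels do not give, so the sort, the later time and what the prefix stands for cannot be told apart.

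Col18a1 was the most abundant of these collagens by FPKM in all 5 groups. It encodes the multiplexin of basement membranes whose end fragment is endostatin. Its mean was 53.4 FPKM at day 0, 71.4 at day 1, 193 at day 2, 172 at day 3 and 126.9 in sorted cells. Next in order stood Col1a1 at day 0 with 4.69 ± 2.25 FPKM, Col2a1 at day 1 with 2.47 ± 0.94 FPKM and at day 2 with 8.10 ± 0.20 FPKM, and Col5a1 at day 3 with 20.3 ± 16.5 FPKM and in sorted cells with 13.2 ± 6.48 FPKM (SD, n = 2, or 3 for sorted). Apart from day 2, these second places were not distinct from the third beyond the spread, as with Col1a2 at day 0 (4.50 ± 1.04 FPKM) and day 1 (2.31 ± 0.48 FPKM) and Col2a1 at day 3 (18.3 ± 9.57 FPKM). The number of members with a mean of at least 1 FPKM was 7 at day 0, 8 at day 1, 16 at day 2, 19 at day 3 and 13 in sorted cells. FPKM over CPM per kilobase of the longest transcript had a median of 0.917 over 31 members and ran up to 2.70 for Col1a1 and 3.62 for Col16a1, so the places of those genes depend on the unit.

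**Figure D1:**
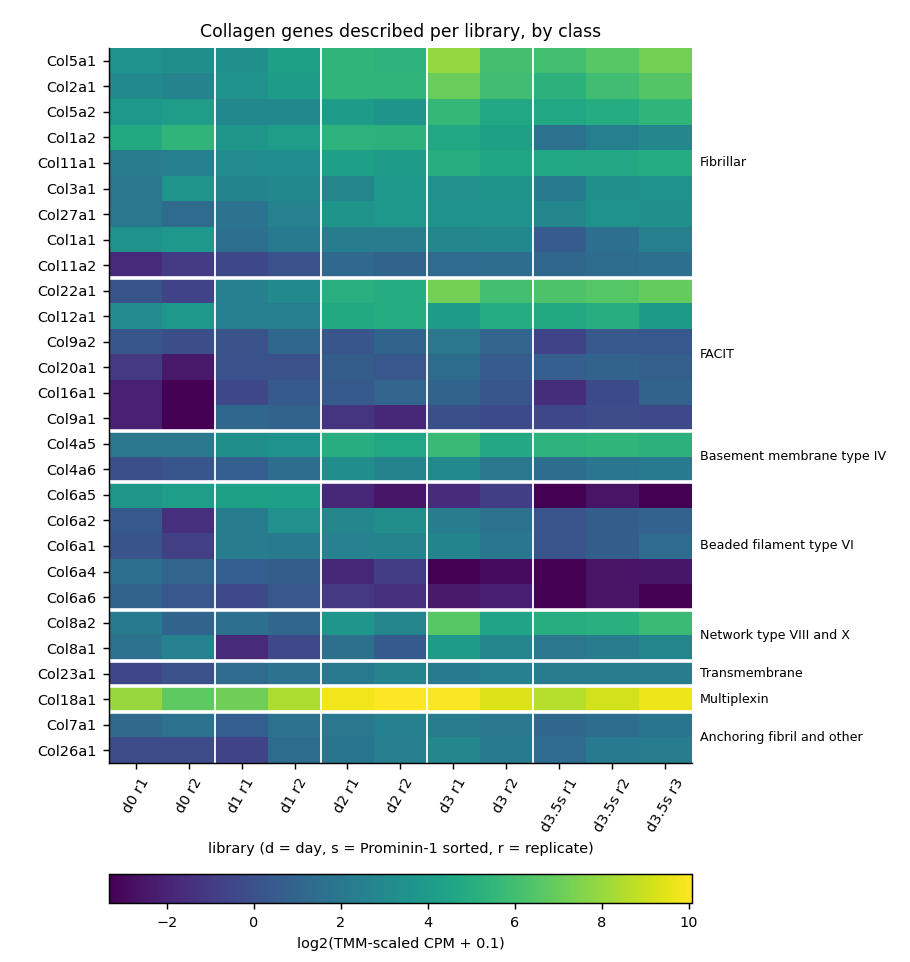
Colour gives log2(CPM + 0.1) of the 28 collagen genes described per library (rows, by class) in the 11 libraries (columns, in time order, sorted libraries at the right). Col18a1 is bright in every column, Col22a1 brightens from day 1 on, Col2a1 and Col5a1 are brighter from day 2 on, and Col6a5, Col6a4 and Col6a6 darken at day 2.

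Of the 42 members, 37 passed the filter on low counts in the fit of days 0 to 3. On at least 1 day 27 of them changed (73%), where 53.7% of all 16810 genes tested did. Of the 27, 4 had their highest mean at day 0, 3 at day 1, 9 at day 2 and 11 on day 3. At day 1 against day 0, 8 members were higher and 4 lower, with 12% and 8.91% of all genes called in those directions. On log2(FPKM + 1), 20 members were tested instead of 37. At day 1, 1 of these was higher and 0 lower, with 1551 and 760 of all 16008 genes called in those directions. By edgeR at day 2 against day 1, 9 members were higher and 3 lower, with 9.65% and 9.99% of all genes. At day 3 against day 2, 2 were higher and 0 lower by edgeR, with 2.81% and 1.26% of all genes (4.07% in either direction), while 2 members were lower at an unadjusted p under 0.05 and 1 by DESeq2. Single libraries moved these counts. The lower count at day 1 was 2 without day 0 replicate 2 or day 1 replicate 1. At day 2, 2 members were higher when day 2 replicate 1 was left out and 4 when day 1 replicate 1 was, and 1 was lower without either day 2 library. At day 3 against day 2, 0 were higher without day 3 replicate 1 or either day 2 library, 5 without day 3 replicate 2 or either day 1 library, and 4 without either day 0 library.

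Over the whole course, day 3 against day 0, 20 members were higher and 6 lower, with 27.6% and 26.3% of all genes called in those directions. The median log2 fold change was 1.60 over the 37 tested members and 0.02 over all genes tested. Fibrillar chains had 6 of 11 tested members higher and 2 lower, FACIT chains 6 of 8 higher and 0 lower, type IV chains 2 of 3 higher and 0 lower, and type VI chains 2 of 6 higher and 3 lower. Without day 3 replicate 1 the counts were 17 higher and 3 lower, and without day 3 replicate 2 the lower count was also 3. Marker sets of other cells moved over the same days. Floor plate markers summed to 1207 to 2318 CPM at day 3 against 27.2 to 30.4 CPM at day 0 (6 of 6 higher). Notochord markers summed to 328 to 643 CPM against 54.5 to 86.2 CPM (4 of 5 tested higher, 1 lower). Both lists hold Shh (279 and 114 CPM in the day 3 libraries) and Foxa2 (179 and 108 CPM), so their sums overlap. Fibroblast markers summed to 381 to 519 CPM at day 3 against 139 to 150 CPM at day 0 (6 of 11 tested higher, 1 lower), and extraembryonic endoderm markers to 1736 to 2677 CPM against 972 to 1216 CPM (4 of 10 higher, 1 lower). Their part in the collagen changes was not tested.

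**Figure D2:**
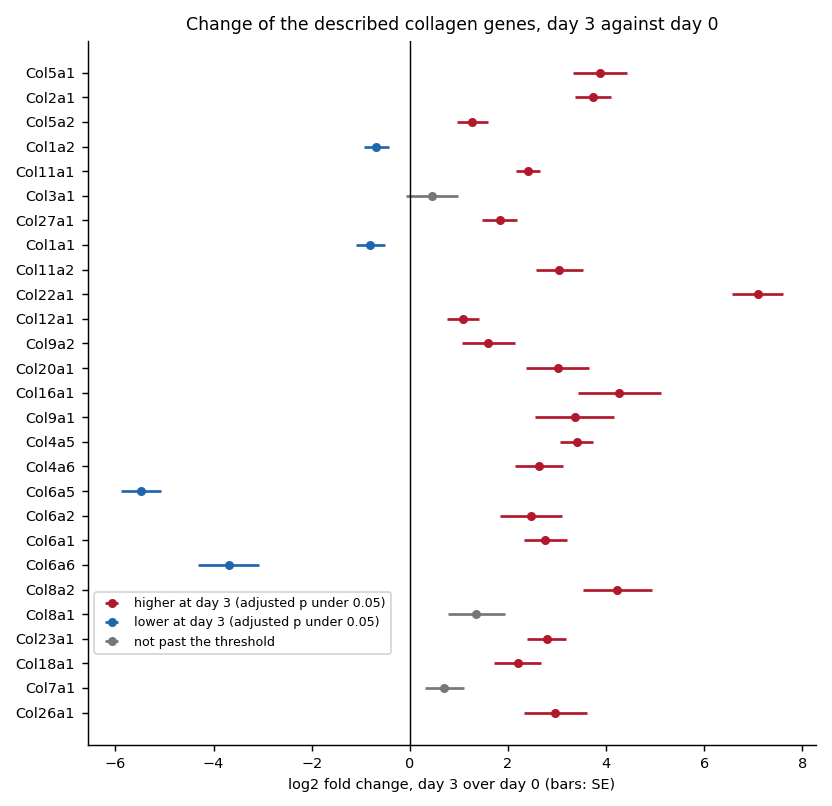
Points give the log2 fold change of day 3 over day 0 with its SE for 27 described collagen genes, ordered by class, in red where higher, in blue where lower and in grey where not past the threshold. Col22a1 has the highest value (7.09), and Col6a5 and Col6a6 lie far to the left (-5.48 and -3.69). Col6a4 is left out because it had 1 count at day 3.

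Among fibrillar chains, the type II and type XI chains of cartilage fibrils rose together. Col2a1 (GRCm38 chromosome 15, 97975602 to 98004695), the type II chain, held 8.13 and 6.21 CPM on day 0, 11.3 and 16 on day 1, 43.8 and 43.6 on day 2, 129.6 and 61.4 on day 3, and 39.5, 63.2 and 91 in sorted cells. Over days 0 to 3 each later day lay above the one before without overlap, while the sorted libraries overlapped those of day 3. The steps at day 1 against day 0 (edgeR adjusted p = 0.0888) and day 3 against day 2 (0.094) did not pass the threshold. Col2a1 rose by 3.74 ± 0.37 at day 3 against day 0 (adjusted p = 5.48e-05, edgeR). At day 2 against day 1 it rose by 1.68 ± 0.34 (adjusted p = 0.00964, edgeR). With a correction for GC content these values were 2.58 (adjusted p = 7.56e-05) and 0.81 (adjusted p = 0.0583), and without day 2 replicate 1 the adjusted p of the day 2 step was 0.0545. Col11a1, whose chain joins the type II product in cartilage fibrils, held 5.07 and 5.44 CPM on day 0, 8.8 and 8.88 on day 1, 18.8 and 16 on day 2, 32.4 and 23.3 on day 3, and 25.5, 26.7 and 31.8 in sorted cells. Its replicates lay close together at days 0 and 1 and differed 1.39-fold at day 3. Col11a1 was higher at day 3 than at day 0 by 2.41 ± 0.25 (adjusted p = 7.1e-05). The day 2 step of Col11a1 (0.98 ± 0.24, adjusted p = 0.0211) was lost without either day 2 library or day 1 replicate 1 (adjusted p = 0.0787 to 0.176). Col11a2, its partner, averaged 2.58 ± 0.17 CPM at day 3 and 0.316 ± 0.159 CPM at day 0 (log2 fold change 3.05 ± 0.48, adjusted p = 0.000747, n = 2 each), and the GC correction gave 1.86 (adjusted p = 0.0217). Of 4 tested chondrocyte markers, 2 were higher at day 3 than at day 0 (Matn3 and Hapln1) and 1 lower, Acan, the cartilage proteoglycan, with -1.40 (adjusted p = 0.000865). Matn1, a cartilage matrix gene, stayed at or below 0.297 CPM in every library. The part of such cells in the collagen values was not tested.

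Of the type V chains, which start and thin collagen fibrils, Col5a1 and Col5a2 were higher at day 3 than at day 0. Col5a3 was not (-0.04 ± 0.45, adjusted p = 0.947, edgeR). Col5a1 (chromosome 2, 27886425 to 28039514) held 11.5 and 9.94 CPM on day 0, 10.6 and 19.5 on day 1, 43.5 and 40.2 on day 2, 244 and 69.6 on day 3, and 65, 94.6 and 156 in sorted cells. Both day 3 libraries lay above all libraries of days 0 to 2, but they lay far apart. Col5a1 rose at day 3 against day 0 (3.87 ± 0.55, adjusted p = 0.000395, 3.10 with the GC correction), and that call held without either day 3 library. Col5a2, its partner, held 13.8 and 17.2 CPM on day 0, 7.58 and 7.44 on day 1, 16.5 and 12.3 on day 2, 48.6 and 26.3 on day 3, and 26.3, 31.3 and 42.7 in sorted cells. Its day 1 libraries were the lowest of all 11. Col5a2 fell at day 1 against day 0 (-1.05 ± 0.31, adjusted p = 0.0438), a call lost without any 1 library of days 0 to 2 (adjusted p = 0.056 to 0.147). It rose at day 3 against day 2 (1.38 ± 0.31, adjusted p = 0.0436) and against day 0 (1.28 ± 0.31, adjusted p = 0.00713). Without day 3 replicate 1 these had adjusted p = 0.359 and 0.0748, and without either day 2 library the day 2 comparison had 0.141 and 0.395. Col27a1, another fibrillar chain of cartilage, averaged 11.7 ± 0.25 CPM at day 3 and 3.26 ± 1.10 CPM at day 0 (1.83 ± 0.36, adjusted p = 0.00227, 1.01 with the GC correction).

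The type I chains, the main fibril of bone, skin and tendon, fell at day 1. Col1a2 (chromosome 6, 4504814 to 4541544) held 28.2 and 43.4 CPM on day 0, 13.6 and 17.6 on day 1, 39.6 and 39.5 on day 2, 25 and 19.4 on day 3, and 3.17, 5.32 and 7.35 in sorted cells. It fell at day 1 (-1.20 ± 0.26, adjusted p = 0.0126), rose at day 2 against day 1 (1.34 ± 0.26, adjusted p = 0.00777), and was lowest in the sorted libraries, none of which overlapped an unsorted one. Leaving out day 0 replicate 2 or day 1 replicate 1 ended the day 1 call (adjusted p = 0.064 and 0.0531), and leaving out day 2 replicate 1 ended the day 2 call (adjusted p = 0.0561). Col1a1 held 11.5 and 13.8 CPM on day 0, 2.81 and 4.66 on day 1, 5.06 and 4.91 on day 2, 6.86 and 7.54 on day 3, and 1.37, 2.85 and 5.37 in sorted cells. By CPM its day 0 libraries stood above all others, and it fell at day 1 (-1.75 ± 0.30, adjusted p = 0.00481). By deposited FPKM the days overlapped, with 3.09 and 6.28 on day 0, 1.15 and 3.40 on day 1, and 4.18 and 2.52 on day 3. On the FPKM settings the day 1 calls of Col1a1 (limma adjusted p = 0.246 to 0.368) and Col1a2 (0.0629 to 0.119) were lost. At day 3 against day 0 Col1a1 (-0.81 ± 0.29, adjusted p = 0.0425) and Col1a2 (-0.68 ± 0.26, adjusted p = 0.047) were near the threshold, and leaving out 1 library moved adjusted p to as much as 0.17 and 0.33. With the GC correction Col1a1 changed by -1.69 (adjusted p = 0.00166) there and Col1a2 by -1.19 (adjusted p = 0.00705). Col3a1, the chain of reticular fibrils, gave no call, with 10.7 and 12.1 CPM on day 3 against 3.84 and 13 on day 0 (0.45 ± 0.52, adjusted p = 0.488).

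Deposited FPKM put Col1a1 over Col1a2 at a ratio of 1.01 ± 0.27 at day 0, 0.935 ± 0.50 at day 1, 0.262 ± 0.032 at day 2, 0.954 ± 0.15 at day 3 and 2.18 ± 0.29 in sorted cells (SD, n = 2, or 3 for sorted). CPM per kilobase gave lower ratios, 0.327, 0.213, 0.114, 0.299 and 0.511 in the same order. Both units had the lowest ratio at day 2 and the highest in sorted cells, and the cause of the gap between them was not tested. Col5a1 over Col5a2 by FPKM was 0.71 ± 0.07 at day 0, 2.15 ± 0.23 at day 1, 3.07 ± 1.05 at day 2, 4.08 ± 1.82 at day 3 and 2.76 ± 0.35 in sorted cells.

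FACIT chains held the member with the highest fold change. Col22a1 (chromosome 15, 71795795 to 72034227), known from the junction of muscle and tendon, held 1.02 and 0.557 CPM on day 0, 5.63 and 8.1 on day 1, 33.4 and 31.5 on day 2, 155 and 64.9 on day 3, and 79.8, 91.2 and 119 in sorted cells. Over days 0 to 3 no library overlapped one of the day before, while the sorted libraries overlapped those of day 3. The steps were 3.09 ± 0.48 at day 1 (adjusted p = 0.0031), 2.24 ± 0.40 at day 2 (adjusted p = 0.00548) and 1.76 ± 0.38 at day 3 (adjusted p = 0.0405). Over the whole course it rose by 7.09 ± 0.52 (adjusted p = 1.16e-05). Only the last step was lost on leaving out a library. Its adjusted p was 0.354 when day 3 replicate 1 was left out, and 0.188 and 0.308 when either day 2 library was. On the FPKM settings the day 1 step was lost (limma adjusted p = 0.0537 to 0.519). The day 2 step was lost on log2(FPKM + 1), with a filter (limma adjusted p = 0.0652) and without (0.119). The last step was lost on the FPKM settings too (0.197 to 0.293), and with the replicate block (0.0672) and the voom values (0.1).

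Col12a1, which coats type I fibrils, held 8.64 and 13.9 CPM on day 0, 5.34 and 5.38 on day 1, 27.7 and 31.1 on day 2, 16.5 and 31 on day 3, and 28.1, 32.1 and 15.4 in sorted cells. It rose at day 2 against day 1 (2.46 ± 0.35, adjusted p = 0.00187), a call that held without each library. Its day 3 call against day 0 (1.09 ± 0.33, adjusted p = 0.0214) was lost without day 0 replicate 1 (0.107) and day 3 replicate 2 (0.198). Col9a1, a chain of the type IX collagen bound to type II fibrils, peaked at day 1. It held 0.136 and 0 CPM on day 0, 2.2 and 1.84 on day 1, 0.297 and 0.182 on day 2, 0.881 and 0.715 on day 3, and 0.658, 0.778 and 0.662 in sorted cells. The day 1 rise was 4.69 ± 0.78 (adjusted p = 0.00406) from 4 counts at day 0, and by summed counts day 1 stood 26.5-fold above day 0 (95% exact interval 10.1 to 98.9, counting error only). The day 2 fall (-3.05 ± 0.66, adjusted p = 0.0127) was lost without either day 2 library (adjusted p = 0.0856 and 0.116). Col16a1 held 1.92 and 1.11 CPM on day 3 against 0.136 and 0 on day 0 (4.27 ± 0.85, adjusted p = 0.00265, 3.35 with the GC correction). At day 1 it was already higher (3.63 ± 0.87, adjusted p = 0.0196), a call lost without day 0 replicate 2 or day 1 replicate 2 (adjusted p = 0.0655 and 0.066). Col20a1 held 2.58 and 1.33 CPM on day 3 against 0.374 and 0.0857 on day 0 (3.01 ± 0.64, adjusted p = 0.00354). Col9a2, the partner of Col9a1, held 3.84 and 1.95 CPM on day 3 against 1.09 and 0.814 on day 0 (1.60 ± 0.54, adjusted p = 0.0308). That call was lost with the GC correction (0.42, adjusted p = 0.373), without either day 0 library (0.059 and 0.12) and without day 3 replicate 1 (0.22).

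Of the type IV chains, Col4a5 and Col4a6 lie 1308 bases apart in opposite directions on chromosome X. Col4a5 (141475385 to 141689234), a chain of the mature kidney and smooth muscle basement membranes, held 3.81 and 3.81 CPM on day 0, 10 and 11.6 on day 1, 32.1 and 25.2 on day 2, 53.1 and 27.4 on day 3, and 39.6, 43 and 38.7 in sorted cells. It rose at day 1 (1.502 ± 0.32, adjusted p = 0.0124) and at day 2 (1.41 ± 0.31, adjusted p = 0.0139), and by 3.41 ± 0.34 at day 3 against day 0 (adjusted p = 5.58e-05). Sorted and day 3 libraries overlapped for Col4a5 (0.01 ± 0.24). Col4a6 held 0.85 and 1.11 CPM on day 0, 1.48 and 2.72 on day 1, 9.41 and 6.25 on day 2, 8.24 and 3.93 on day 3, and 2.75, 3.76 and 4.71 in sorted cells. Its highest mean was at day 2, where it rose (1.89 ± 0.46, adjusted p = 0.0207), and at day 3 it was above day 0 by 2.64 ± 0.49 (adjusted p = 0.0018). Without day 1 replicate 1 or day 2 replicate 1 the day 2 calls of Col4a5 (adjusted p = 0.0636 and 0.113) and Col4a6 (0.103 and 0.147) were lost. For comparison, the chains left out here, Col4a1 and Col4a2, averaged 378 ± 122 and 189 ± 60.7 CPM in sorted cells against 1579 ± 747 and 716 ± 350.3 CPM at day 3, and fell there by 2.06 and 1.92 (adjusted p = 0.014 and 0.0188).

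**Figure D3:**
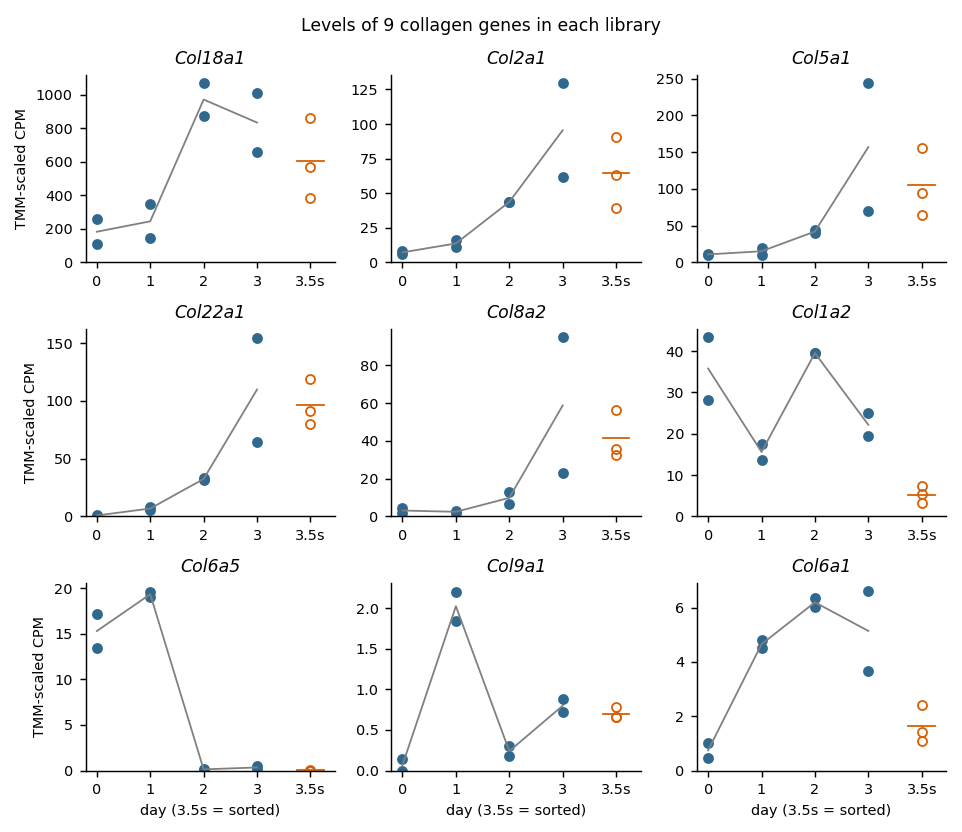
Each panel plots 1 collagen gene, with points for the CPM of single libraries, a grey line through the day means and open points with a bar at their mean for the sorted libraries. Col5a1 and Col8a2 spread widely at day 3 (244 and 69.6 CPM, 94.8 and 22.8 CPM), Col9a1 peaks at day 1, and Col6a5 is near 0 from day 2.

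Type VI chains, which form beaded filaments around cells, split into groups that moved apart. Col6a5 (chromosome 9, 105856078 to 105960643) held 13.4 and 17.2 CPM on day 0, 19.6 and 19 on day 1, 0.186 and 0.0727 on day 2, 0.22 and 0.455 on day 3, and 0, 0.0649 and 0 in sorted cells. It fell by 7.18 on the log2 scale at day 2 against day 1 (SE 0.47, adjusted p = 7.48e-05), and its call held under every alternative that gave a value. Its neighbours on the chromosome fell too. Col6a4, 28810 bases away, held 2.86 and 1.93 CPM on day 0, 1.52 and 1.44 on day 1, 0.186 and 0.436 on day 2, and 0 and 0.0325 on day 3. Its summed count was 1 at day 3 and 129 on day 0, and day 0 stood 153-fold above day 3 with a 95% exact interval of 27.0 to 6087 (edgeR adjusted p = 0.000167). The day 2 call of Col6a4 (-2.22 ± 0.57, adjusted p = 0.026) was lost without either day 2 library or day 1 replicate 1 (adjusted p = 0.0646 to 0.209). Col6a6, 27917 bases away on the other side, held 0.0944 and 0.13 CPM on day 3 against 1.84 and 1.16 on day 0 (-3.69 ± 0.62, adjusted p = 0.00105). The products of these neighbouring genes can take the place of the alpha 3 chain in type VI collagen.

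Col6a1 and Col6a2, the core chains that lie 85161 bases apart on chromosome 10, moved in the opposite direction. Col6a1 held 1.02 and 0.471 CPM on day 0, 4.8 and 4.5 on day 1, 6.02 and 6.36 on day 2, 6.6 and 3.67 on day 3, and 1.08, 1.43 and 2.43 in sorted cells. Col6a2 held 1.19 and 0.257 CPM on day 0, 4.76 and 10.7 on day 1, 7.03 and 9.74 on day 2, 5.1 and 3.22 on day 3, and 1.08, 1.43 and 1.77 in sorted cells. Both were higher at day 1 than at day 0 without overlap (2.61 ± 0.44, adjusted p = 0.00436, and 3.36 ± 0.64, adjusted p = 0.00731). They were still higher at day 3 (2.76 ± 0.44, adjusted p = 0.000784, and 2.48 ± 0.63, adjusted p = 0.00913), and the Col6a2 call was lost without day 3 replicate 1 (0.0618). Col6a3, the alpha 3 chain that joins them in the classical heterotrimer, had 0 to 15 counts per library.

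Col8a1 and Col8a2, the short network chains known from the corneal Descemet membrane, had their highest means at day 3. Col8a2 (chromosome 4, 126286793 to 126314330) held 4.35 and 1.88 CPM on day 0, 2.81 and 2.06 on day 1, 12.9 and 6.8 on day 2, 94.8 and 22.8 on day 3, and 32.3, 35.7 and 56.3 in sorted cells. It rose at day 3 against day 0 (4.23 ± 0.70, adjusted p = 0.000968, 3.40 with the GC correction), although the day 3 libraries differed 4.17-fold. Col8a1 held 3.26 and 6.04 CPM on day 0, 0.216 and 0.688 on day 1, 2.94 and 1.27 on day 2, 16.7 and 7.02 on day 3, and 3.89, 4.93 and 6.62 in sorted cells. It fell at day 1 (-3.32 ± 0.69, adjusted p = 0.0108), where both libraries lay below every other one. Its day 3 values lay above day 0 without passing the threshold (1.36 ± 0.58, adjusted p = 0.0748).

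Col18a1 (chromosome 10, 77052178 to 77166548) held 257 and 108 CPM on day 0, 144 and 346 on day 1, 871 and 1073 on day 2, 1010.5 and 659 on day 3, and 386, 567 and 862 in sorted cells. Days 2 and 3 lay above days 0 and 1 without overlap. It rose at day 2 against day 1 (1.99 ± 0.48, adjusted p = 0.02) and at day 3 against day 0 (2.20 ± 0.48, adjusted p = 0.0043), by 1.31 and 1.28 with the GC correction. The day 2 call was lost without day 1 replicate 1, day 2 replicate 1 or day 2 replicate 2 (adjusted p = 0.061 to 0.0789). Its share of the summed FPKM of all members lay between 58.5% and 79.6%, and the rest of the members together made up 141 and 62.0 FPKM on day 3 against 20.3 and 24.6 FPKM on day 0. Col23a1, a transmembrane chain, held 4.5 and 5.88 CPM on day 3 against 0.612 and 0.899 on day 0 (2.79 ± 0.40, adjusted p = 0.000443). It had risen by day 1 (1.95 ± 0.40, adjusted p = 0.0103, 0.0523 without day 0 replicate 1). Col26a1 held 7.27 and 4.29 CPM on day 3 against 0.748 and 0.728 on day 0 (2.97 ± 0.64, adjusted p = 0.00393, 1.99 with the GC correction). Col7a1, the anchoring fibril chain of skin, gave no call, with 4.94 and 4 CPM on day 3 against 2.38 and 3.13 on day 0.

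The other 14 members never exceeded a mean of 0.614 FPKM, the value of Col9a3, and the count of a single library reached 111 at most, for Col5a3. Col10a1, the chain of hypertrophic cartilage, had 0 counts in 10 libraries and 2 in the remaining one. Col13a1, a transmembrane chain, had 6 and 8 counts at day 3 against 33 and 20 on day 0 and was lower there (-2.12 ± 0.59, adjusted p = 0.0141). Col4a4 had 11 and 10 counts at day 1 and 0 in both day 0 libraries, and was called higher (adjusted p = 0.0297), at least 6.19-fold against a floor of 3 counts over the day 0 group. Col10a1, Col19a1, Col28a1 and Col4a3 passed the filter in neither fit and were not tested, and Col15a1 was tested in sorted cells against day 3 alone, with no call. Col14a1, Col17a1, Col24a1, Col25a1, Col5a3, Col6a3 and Col9a3 were tested and gave no call between neighbouring days, between day 3 and day 0 or between sorted cells and day 3.

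Between the day 3 libraries, 15 of 37 tested members (40.5%) were over 1.5 times higher in replicate 1 than in replicate 2, against 13.3% of all genes tested, and 5 (13.5%) were over 1.5 times higher in replicate 2, against 8.76%. Col8a2 differed 4.17-fold, Col22a1 2.39-fold and Col2a1 2.11-fold, and Col5a1 stood at 244 and 69.6 CPM. Most marker sets were higher in replicate 1 too, among them all 6 floor plate markers. Shh, the secreted floor plate signal, stood at 279 and 114 CPM, Spon1 at 470 and 206 CPM and Foxa2 at 179 and 108 CPM. The 6 summed to 2318 and 1207 CPM in these libraries, and the 6 notochord markers, which include Shh and Foxa2, to 643 and 328 CPM. The 10 extraembryonic endoderm markers summed to 2677 and 1736 CPM, surface ectoderm markers to 462 and 269 CPM and fibroblast markers to 519 and 381 CPM. Neural progenitor markers summed to 2623 and 2231 CPM, while mesoderm markers went the other way, at 13.8 and 25 CPM. What part any of these sets had in the collagen difference was not tested. In the sorted libraries replicate 1 was the lowest for 29 of 37 members (78.4%, against 38.5% of all genes), with Col5a1 at 65, 94.6 and 156 CPM in replicates 1, 2 and 3.

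**Figure D4:**
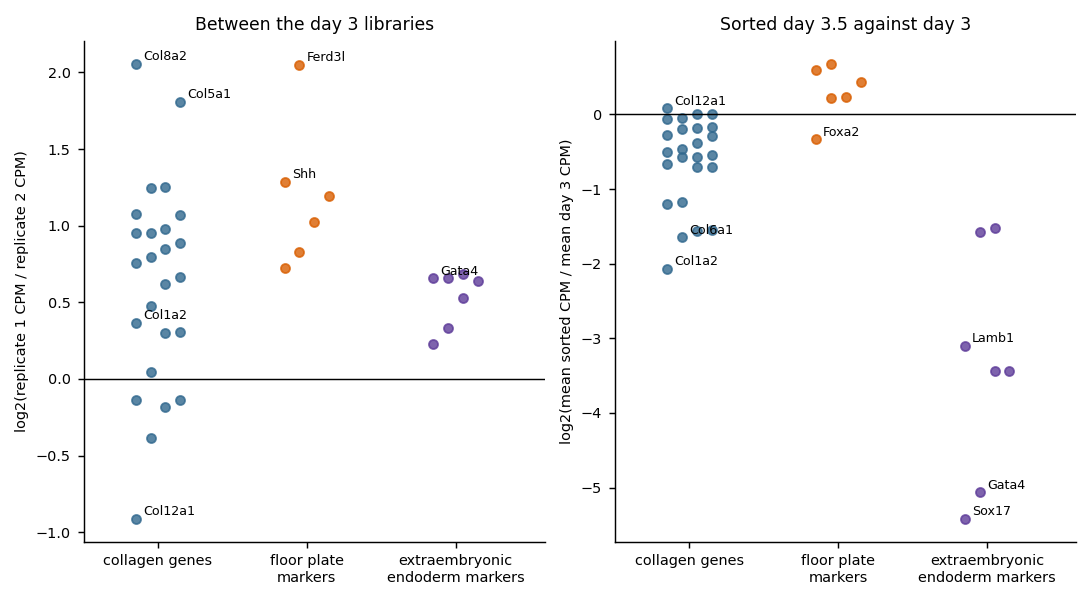
Left, log2 ratio of the CPM of day 3 replicate 1 to replicate 2, and right, log2 ratio of the mean sorted CPM to the mean day 3 CPM, for the 25 collagen genes described per library other than Col6a4, Col6a5 and Col6a6, and for the 6 floor plate and 7 extraembryonic endoderm markers with a day 3 mean of at least 1 CPM. Floor plate markers lie above 0 on the left and near 0 on the right, and endoderm markers lie far below 0 on the right.

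How the collagen genes stood in sorted progenitors was asked by comparing sorted day 3.5 with day 3, in a fit of 17006 genes over all 11 libraries. By edgeR 3 members were lower and 0 higher, with 2.93% and 0.435% of all genes called in those directions (3.37% in either). The lower count was 1 without day 3 replicate 1, sorted replicate 1 or 2, or either day 2 library. No member was higher at an unadjusted p under 0.05 or by DESeq2 either. Col1a2 fell by 2.08 (SE 0.30, adjusted p = 0.00336), to 5.28 ± 2.09 CPM in sorted cells (n = 3) against 22.2 ± 3.98 at day 3 (n = 2), and held under every alternative. Col6a1 fell by 1.66 (SE 0.39, adjusted p = 0.0453), with adjusted p = 0.406 without day 3 replicate 1, 0.183 and 0.182 without sorted replicate 1 or 2, and 0.0718 and 0.0768 without day 2 replicate 1 or 2. Col6a5 had 1 count in the 3 sorted libraries against 21 at day 3, and its call (adjusted p = 0.0462) was lost without any 1 library of days 1 to 3.5 (0.0501 to 0.195) and with another scaling (0.0503). Of the most abundant members after Col18a1, Col2a1 (-0.57 ± 0.35, adjusted p = 0.482), Col5a1 (-0.58 ± 0.46, adjusted p = 0.604), Col22a1 (-0.19 ± 0.32, adjusted p = 0.847) and Col8a2 (-0.51 ± 0.51, adjusted p = 0.709) had sorted libraries that overlapped those of day 3.

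Markers of other cells moved between these groups as well. Of 10 extraembryonic endoderm markers 8 were lower and 0 higher in sorted cells, summing to 466 to 580 CPM against 1736 to 2677 CPM at day 3. Gata4, an endoderm transcription factor, held 0.538, 1.75 and 0.662 CPM in sorted cells against 40.2 and 25.5 on day 3, and Sox17 was at 0 in 1 sorted library. Of 11 tested fibroblast markers Pdgfra was lower and the others gave no call, with sums of 242 to 317 CPM against 381 to 519 CPM. Of 7 tested surface ectoderm markers 5 were lower and 0 higher. Floor plate markers gave 0 calls of 6 by edgeR and summed to 1891 to 2389 CPM in sorted cells against 1207 to 2318 CPM at day 3. Their part in the fall of Col1a2 and Col6a1 was not tested.

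The genes that make, secrete and read collagen were counted in the same fits, against a background at day 3 over day 0 of 27.6% of all genes higher and 26.3% lower. Of 18 folding and hydroxylation genes, 7 were higher and 3 lower at day 3 against day 0, among them the proline hydroxylase subunit P4ha3 (4.73 ± 0.53, adjusted p = 0.000107) and the collagen chaperone Serpinh1 (1.96 ± 0.34, adjusted p = 0.00118). In sorted cells 3 of these 18 were lower than at day 3 and 0 higher, with P4ha2 changed by -1.59 (adjusted p = 0.00354). Of 15 processing and crosslinking genes, 9 were higher and 4 lower at day 3 against day 0. The procollagen C-proteinase Bmp1 rose (3.52 ± 0.41, adjusted p = 0.000134) while its enhancers Pcolce (-2.83, adjusted p = 0.000231) and Pcolce2 (-4.08, adjusted p = 6.34e-05) fell. Of 8 tested collagen receptors 3 were higher and 1 lower, including the discoidin receptor Ddr1 (2.25 ± 0.47, adjusted p = 0.00331). Of 9 tested genes of a breakdown list that joins proteases and their inhibitors, 5 were higher and 3 lower. The higher ones included the protease inhibitors Timp3 (4.51 ± 0.30, adjusted p = 7.81e-06) and Timp2 (3.00 ± 0.22, adjusted p = 1.25e-05), and the protease Mmp15. The lower ones were the proteases Mmp9 and Mmp14 and the inhibitor Timp1. Of 10 tested genes of a list that joins regulators and matrix genes of cartilage and floor plate, 8 were higher and 1, the matrix gene Acan, lower. Sox5 (7.11 ± 0.41, adjusted p = 4.02e-06) and Sox6 (5.11 ± 0.26, adjusted p = 2.31e-06), which activate Col2a1 together with Sox9 in cartilage, were among them.

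Promoter windows of 250 bases before the RefSeq start (GRCm38.p6) were present for 33 members in 36 windows, and not for Col12a1, Col14a1, Col1a1, Col22a1, Col26a1, Col2a1, Col4a3, Col5a2 and Col9a3. The GC box GGGCGG on either strand lay in 58.3% of these windows and in 32.7% of all 32851 windows of this length. For CCAAT the shares were 30.6% and 33.8%, and for TATAAA 13.9% and 12.4%. The FOXA motif TGTTTAC was matched for Col6a1 alone (2.78% of the windows, against 3.17% of all), and the GLI motif GACCACCCA in 0 of 36 (0.225% of all windows). A match is a description of letters and not of a bound factor. The windows of Col8a2 and Col5a1, the members that differed most between the day 3 libraries, and of Col6a5, the member that fell most at day 2, are shown with GC boxes in capitals, at chr4:126286544-126286793 (plus strand), chr2:27886175-27886424 (plus strand) and chr9:105960644-105960893 (minus strand). They hold 4, 2 and 1 matches and have 70%, 76.4% and 58.8% GC.
Col8a2: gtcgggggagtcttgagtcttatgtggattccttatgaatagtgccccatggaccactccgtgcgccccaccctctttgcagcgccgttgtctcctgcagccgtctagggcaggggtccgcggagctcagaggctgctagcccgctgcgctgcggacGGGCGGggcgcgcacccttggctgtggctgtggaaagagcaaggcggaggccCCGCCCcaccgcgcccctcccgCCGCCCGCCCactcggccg
Col5a1: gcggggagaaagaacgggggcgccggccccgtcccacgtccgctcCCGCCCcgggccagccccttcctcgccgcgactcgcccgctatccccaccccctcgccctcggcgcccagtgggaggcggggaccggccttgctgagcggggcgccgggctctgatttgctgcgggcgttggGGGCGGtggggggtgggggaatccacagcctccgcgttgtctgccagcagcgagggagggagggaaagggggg
Col6a5: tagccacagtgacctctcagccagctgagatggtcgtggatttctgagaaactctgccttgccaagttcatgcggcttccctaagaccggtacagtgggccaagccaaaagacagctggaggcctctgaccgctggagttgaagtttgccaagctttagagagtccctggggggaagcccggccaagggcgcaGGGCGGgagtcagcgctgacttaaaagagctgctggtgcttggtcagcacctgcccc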

How the data were processed

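Expected counts, FPKM and log2 (voom) values per gene were deposited by the authors in 11 columns, all matched to libraries by the labels' descriptions. The submitters' processing notes list limma, Cufflinks 2.1.1, HTSeq 0.6.1, TopHat2 2.0.4, CASAVA and bcl2fastq 1.8.3 with no role for any, and the builds mm10 and GRCm38. The annotation and the strand setting were not stated there, and other genes overlapped up to 6.07% of the exon bases of a member (Col9a3). The deposited counts were whole for 38093 genes and fractional for 104, none of them a member, so they were rounded. The deposited log2 values equalled log2 CPM recomputed from the counts to within 5.15e-14.

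Counts were tested in edgeR 4.0.16 (R 4.3.3) with TMM scaling, filterByExpr at a minimum count of 10 and a threshold of 0.05 after Benjamini-Hochberg adjustment. Days 0 to 3 were fitted on their 8 libraries and sorted day 3.5 against day 3 on all 11. The procedure was also run on simulated counts with known changes, for day 1 against day 0, day 3 against day 2 and sorted day 3.5 against day 3. Day 3 against day 0 was not simulated. The outcome is not reported here and is not used as support for the calls. Alternatives were RLE size factors, no filter, DESeq2 1.42.0, a replicate block, a GC offset (lowess span 0.3), limma 3.58.1 on log2(FPKM + 1 or 0.1) with at least 1 FPKM in 2 libraries, the same without a filter, the deposited voom values, other libraries in the fit, and leaving out each library.

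Members, gene lists and classes were chosen with earlier results of these data known. Members with a mean of at least 1 FPKM on a day, or called with a mean of at least 1 CPM, were described per library. From other lists, genes with the 3 smallest adjusted p per direction could be named; markers were named freely as values. Gene positions and transcripts are from GENCODE M21.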

Additional observations from a re-analysis of the deposited data

How the results depend on the processing

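Counts of collagen genes called stayed within 1.5 times of the reported ones except as follows. On log2(FPKM + 1), log2(FPKM + 0.1) and log2(FPKM + 1) without a filter, any change gave 17, 17 and 17 members of 20, 20 and 42 tested (37 in the edgeR fit; 7185 of all 16008 genes on log2(FPKM + 1)), day 1 against day 0 gave 1, 3 and 2 higher and 0, 0 and 0 lower, day 2 against day 1 gave 3, 5 and 1 higher, and day 3 against day 2 gave 0, 0 and 0 higher. At day 1 against day 0 these settings called 1551, 1713 and 1421 of all genes higher and 760, 690 and 795 lower. The edgeR fit called 2015 and 1498. Higher at day 2 against day 1 were 927, 886 and 776 of all genes, against 1623 with edgeR. Higher at day 3 against day 2 were 163, 44 and 209, against 473. With both filtered FPKM settings 1 member was lower at day 2 against day 1 and 1 at day 3 against day 0. On log2(FPKM + 1) 13 members were higher at day 3 against day 0, and on log2(FPKM + 0.1) 1 was lower in sorted cells. Without a filter on counts, 16 members were higher at day 2 against day 1, and 6 higher and 2 lower at day 3 against day 2. In sorted cells 6 members were lower without that filter. All genes called there numbered 2382, 991, 617 and 856 in the same order, where the filtered fits called 1623, 473, 211 and 499. At day 3 against day 2, 6 members were higher and 1 lower with DESeq2, and 6 and 1 with the GC offset. With all 11 libraries 5 were higher and 1 lower, and with the voom values 0 were higher. Of all genes, 951, 1394, 962 and 293 were higher under these settings in order, against 473 in the edgeR fit. Lower were 523 with DESeq2, 1031 with the GC offset and 469 with all 11 libraries, against 211. Day 2 against day 1 had 5 members lower with the GC offset and 1 with the voom values, where 2584 and 1921 of all genes were lower. Sorted cells had 1 member lower with only the 5 libraries of that comparison in the fit, where 363 of all genes were. The voom values, scaled without TMM, shifted the median of all genes by 0.151 at day 1 and 0.175 at day 3 against day 0. CPM per kilobase put Col1a1 over Col1a2 at 0.327, 0.213, 0.114, 0.299 and 0.511 from day 0 to sorted cells. Col6a4 at day 2 against day 1 reversed to 0.0922 on log2(FPKM + 1) without a filter (adjusted p = 0.726). The causes were not tested.

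Leaving out 1 library gave 24 to 27 members with any change, 6 to 9 higher and 2 to 5 lower at day 1, 2 to 13 higher and 1 to 3 lower for day 2 against day 1, 0 to 5 higher and 0 to 0 lower at day 3 against day 2, 17 to 22 higher and 3 to 6 lower at day 3 against day 0, and 0 to 0 higher and 1 to 3 lower in sorted cells. Replicate numbers were not taken as pairs, as the labels do not tie libraries to cultures. Differences of replicate 1 less replicate 2 correlated between groups at -0.45 to 0.28 over 17006 genes, which cannot show whether equal numbers belong together. With the replicate block, 1 member was higher at day 3 against day 2. It gave 25 members with any change, 8 higher and 3 lower at day 1, 10 and 3 for day 2, 20 and 4 for day 3 against day 0, and 0 and 2 in sorted cells. Of 53 calls of single genes, 21 held under every alternative that gave a value. With 2 or 3 libraries a group, and 13173674 to 30384599 counts, genes with few counts can be called only for large changes.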
